A study of Mus musculus with 2 samples.

Results

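Gm25301 is a miRNA gene annotated on the plus strand of mouse chromosome 18, from 61397813 to 61397925 in mm10, and it was counted here only through reads on its opposite strand. It is 1 of 1973 annotated miRNA genes with a row in the deposited count tables, and its row (ENSMUSG00000093026.1) was found by matching the identifier to GENCODE release M21. In that release the 66 bases of Mir378a, on the minus strand from 61397835 to 61397900, lie wholly inside the 113 bases of Gm25301. Mir378a itself has no row in the tables used here, so the opposite-strand count of Gm25301 stands for it. The gene was chosen by that opposite-strand count, which was known to be high, so its level and rank are descriptions and carry no test.

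miR-378a is cut from a hairpin in an intron of Ppargc1b, the gene of the coactivator PGC-1 beta, which turns on genes of mitochondria and of fatty acid use. The hairpin yields a 5p and a 3p miRNA, one from each arm, and in mice the pair is known from work on muscle, liver and fat, where it acts on energy use. Gene counts join the arms, so they cannot be told apart here. Small RNA of less than 30 nucleotides was sequenced from kidneys of B6NCrl mouse embryos at 14.5 days of gestation, when the ureteric bud branches and nephrons form. There was 1 group, embryonic kidney with no treatment named, with 2 biological replicates of 2 kidneys each, collected on different days. The labels name a single pup for each replicate and, in other fields, both sexes and a shared donor, so the number of embryos is not settled and the spread between replicates may be partly technical.

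The arrangement of Gm25301, a counted gene whose reads lie on the strand of an annotated hairpin opposite to it, recurred at other loci. The mature miRNAs encoded opposite the next 3 such genes by level are shown with both arms, since the arm read is not known. For Gm24111 only let-7f-5p of the opposite hairpin is added, and its other arm, let-7f-1-3p, is not shown. The arm read there is not known either. let-7f is also encoded at other loci, and a read that fits more than a single locus was left uncounted. Whether the Gm24111 counts come from let-7f-5p was not tested. The sequences are RefSeq's on GRCm38.p6, 5′ to 3′, with the seed (bases 2 to 8, the part that pairs with targets) in capitals. The let-7e and let-7f 5p miRNAs have the same seed, and all 7 sequences come from the strand opposite to the counted gene.
let-7e-5p (Mirlet7e, chr17:17830366-17830387, plus strand, opposite Gm25927): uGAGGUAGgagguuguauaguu
let-7e-3p (Mirlet7e, chr17:17830411-17830432, plus strand, opposite Gm25927): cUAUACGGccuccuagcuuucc
miR-191-5p (Mir191, chr9:108568325-108568347, plus strand, opposite Gm24083): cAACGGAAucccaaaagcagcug
miR-191-3p (Mir191, chr9:108568367-108568388, plus strand, opposite Gm24083): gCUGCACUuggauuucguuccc
miR-409-5p (Mir409, chr12:109743172-109743194, plus strand, opposite Gm24321): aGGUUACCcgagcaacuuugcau
miR-409-3p (Mir409, chr12:109743204-109743225, plus strand, opposite Gm24321): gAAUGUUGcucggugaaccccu
let-7f-5p (Mirlet7f-1, chr13:48537889-48537910, minus strand, opposite Gm24111): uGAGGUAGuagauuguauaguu

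The libraries held 10450326 reads in replicate 1 and 6765908 in replicate 2. Of these, 28.3% and 27.5% mapped to several places and are in no gene's count. Genes took 5202588 and 3683978 counts on their own strand and 102513 and 67414 on the opposite strand. Levels are given as CPM, counts per 1000000 counts on the genes' own strand. They are not divided by length, since a mature miRNA is short whatever the length of its gene. Intervals and limits cover counting error only, and since no molecular identifiers are named, PCR copies of a molecule may be counted more than once.

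Gm25301 had 41082 opposite-strand counts in replicate 1 and 28347 in replicate 2, with 0 counts on its own strand in both. Its opposite-strand level was 7896 CPM in replicate 1 (95% exact Poisson interval 7820 to 7973) and 7695 CPM in replicate 2 (7605 to 7785), which averages 7796 ± 143 CPM (SD, n = 2). The replicates lay close together, although their counting intervals did not overlap. For the gene's own strand, a limit of 3 counts is 0.577 CPM in replicate 1, while in replicate 2 it is 0.814 CPM. These limits are 0.0073% and 0.0106% of the opposite-strand count. As a share of all gene counts on both strands, Gm25301 held 0.774% in replicate 1 and 0.756% in replicate 2.

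Set against the own-strand counts of all genes, the opposite-strand level of Gm25301 had rank 25 by mean CPM. The gene was in position 24 in replicate 1, with 23 genes above it, and in position 25 in replicate 2, with 24 above it. Detection was set at a minimum of 10 own-strand counts in both libraries, which 345 genes reached. Their median level was 106 CPM in replicate 1 and 114 CPM in replicate 2, and Gm25301 stood 74.8-fold and 67.3-fold above it. Of the detected genes, 6.67% lay above Gm25301 in replicate 1 and 6.96% in replicate 2.

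**Figure D1:**
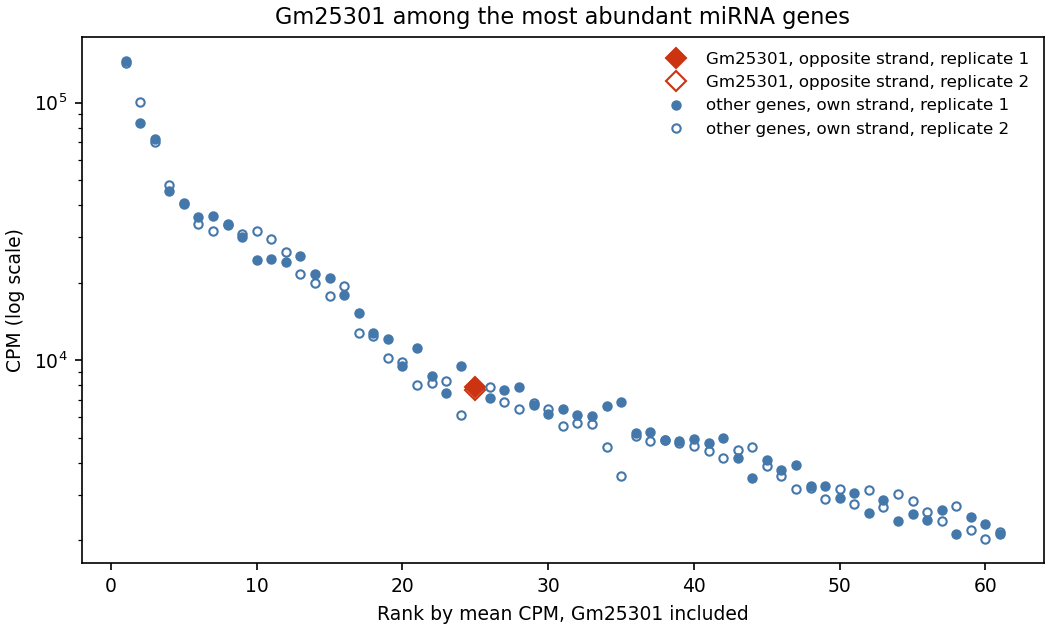
Level in CPM (log axis) of the 60 most abundant genes on their own strand (circles) and of Gm25301 on its opposite strand (diamonds), placed by rank of mean CPM, with filled symbols for replicate 1 and open symbols for replicate 2. Gm25301 takes position 25 at 7896 and 7695 CPM, and its replicates lie closer together than those of Mir351 and Mir130b on either side of it.

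The genes next to Gm25301 in rank were Mir106b, of a cluster in Mcm7 tied to cell division, and Mir351 above it, and Mir130b and Mir21a, a miRNA known from kidney injury, below it. Mir351 had 9529 CPM in replicate 1 and 6154 CPM in replicate 2, a mean of 7841 ± 2387 CPM (SD, n = 2). Mir106b had 7441 and 8331 CPM (7886 ± 629), and Mir130b had 7159 and 7879 CPM (7519 ± 509). For these 3 genes the replicates disagreed on whether Gm25301 was higher, so the order among them is not settled. Of the 10 genes nearest in rank, 5 above and 5 below, 4 had replicate ranges that overlapped that of Gm25301, the other being Mir744 at 7860 and 6451 CPM. The remaining 6 did not overlap it. Above it were Mir93 at 9659 ± 207 CPM, Mirlet7d at 9549 ± 2198 CPM and Mir23a at 8416 ± 328 CPM, and below it Mir21a at 7260 ± 543 CPM, Mir652 at 6767 ± 104 CPM and Mir100 at 6329 ± 171 CPM. The gap to Mirlet7d was small in replicate 2, where Gm25301 had 7695 CPM and Mirlet7d 7995 CPM.

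Gm25301 held the largest share of all opposite-strand counts of any gene in both libraries. It held 40.1% of them in replicate 1 and 42.0% in replicate 2, on average 41.1% ± 1.40 (SD, n = 2). The exact Clopper-Pearson 95% intervals were 39.8% to 40.4% and 41.7% to 42.4%. The opposite strand took 1.93% of gene counts in replicate 1 and 1.80% in replicate 2. Without Gm25301 it took 1.17% and 1.05%.

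Among 355 genes with at least 10 counts on both strands together in each replicate, 11 (3.10%) had over 50% of their counts on the opposite strand in both replicates, Gm25301 among them. After Gm25301 came Gm25927, opposite Mirlet7e, with 25381 and 15010 opposite-strand counts (4476 ± 569 CPM, SD, n = 2). Gm24083, opposite Mir191, followed with 14612 and 8782 counts (2596 ± 300.4 CPM), and Gm24321, opposite Mir409, with 7554 and 4921 counts (1394 ± 82.2 CPM). The replicate range of Gm25301 overlapped that of none of the other 10. Lower levels were found for Gm25252 opposite Mir376a at 697 ± 40.9 CPM, Mir497b opposite Mir497 at 627 ± 65.5 CPM, Mir299b opposite Mir299a at 608 ± 33.0 CPM, Mir142b opposite Mir142 at 318 ± 7.96 CPM and Gm25750 opposite Mir380 at 295 ± 0.892 CPM. Gm24111, opposite Mirlet7f-1, had 90.1 ± 20.2 CPM, and Mir3074-1, opposite Mir24-1, had 76.1 ± 10.1 CPM. let-7f and miR-24 are also encoded at other loci, which makes the values of Gm24111 and Mir3074-1 uncertain.

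**Figure D2:**
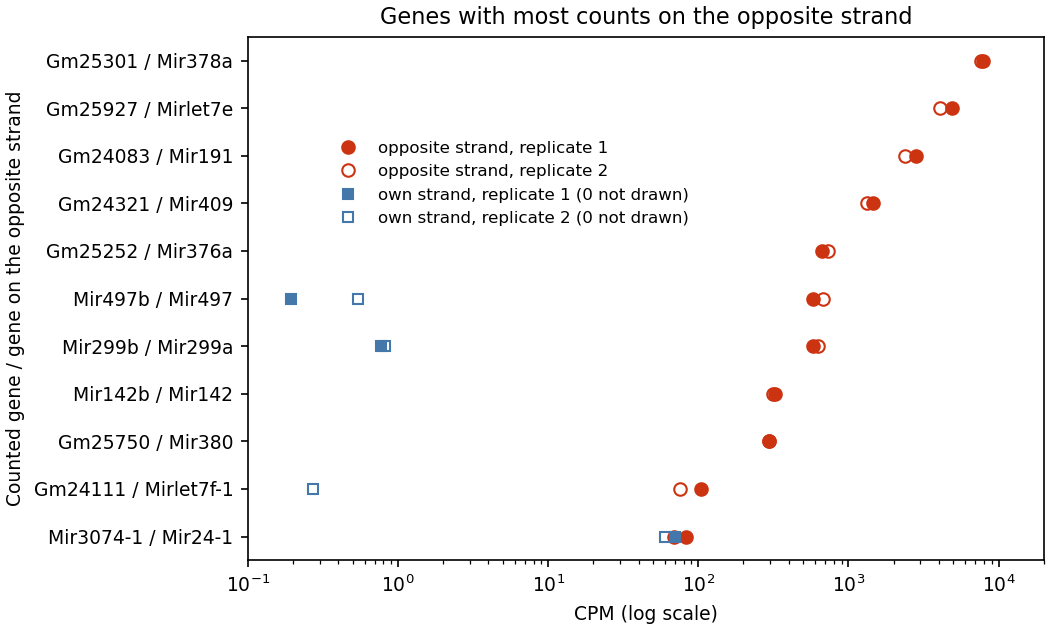
CPM (log axis) on the opposite strand (circles) and on the gene's own strand (squares, not drawn at 0) for the 11 genes with most counts on the opposite strand, with filled symbols for replicate 1 and open ones for replicate 2; labels give the counted gene and then the gene opposite to it. Gm25301 is highest at 7796 CPM and has no own-strand count, while Mir3074-1 has counts on both strands.

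The 11 genes shared a feature that their choice did not use. Each overlaps an annotated miRNA gene on the other strand in GENCODE M21, and none of these opposite genes has a row in the tables used here. Gm25301 was itself taken up as the gene opposite Mir378a, so only for the other 10 was the overlap not known from their choice. Over all rows, 32 genes overlap a miRNA gene of the other strand, and in each case the opposite gene has no row. Of these 32 genes, 23 had at least 10 counts on both strands together in each replicate. The 12 of them with most counts on their own strand had at most 23.5% on the opposite strand in any replicate, in Mir486. None of the 332 genes with at least 10 counts and no miRNA gene opposite had most of its counts there, and the highest opposite-strand share among them in any replicate was 11.8%, in Mir7654 (4 opposite-strand and 30 own-strand counts in replicate 1). Together the 11 genes held 99.9% of opposite-strand counts in replicate 1 and 99.8% in replicate 2, which left 150 and 107 counts to all other genes.

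Within the 11 genes, 7 had 0 own-strand counts in both replicates, as Gm25301 did. Mir299b had 4 and 3 own-strand counts, Mir497b 1 and 2, and Gm24111 0 and 1. Mir3074-1 was the exception, with 363 and 222 own-strand counts and 54.4% and 53.4% of its counts on the opposite strand. In 10 of the 11 the opposite gene lies wholly inside the counted gene, and Mir299b instead lies inside Mir299a. In Gm25301 the Mir378a hairpin begins 22 bases from the left end and stops 25 bases before the right end.

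**Figure D3:**
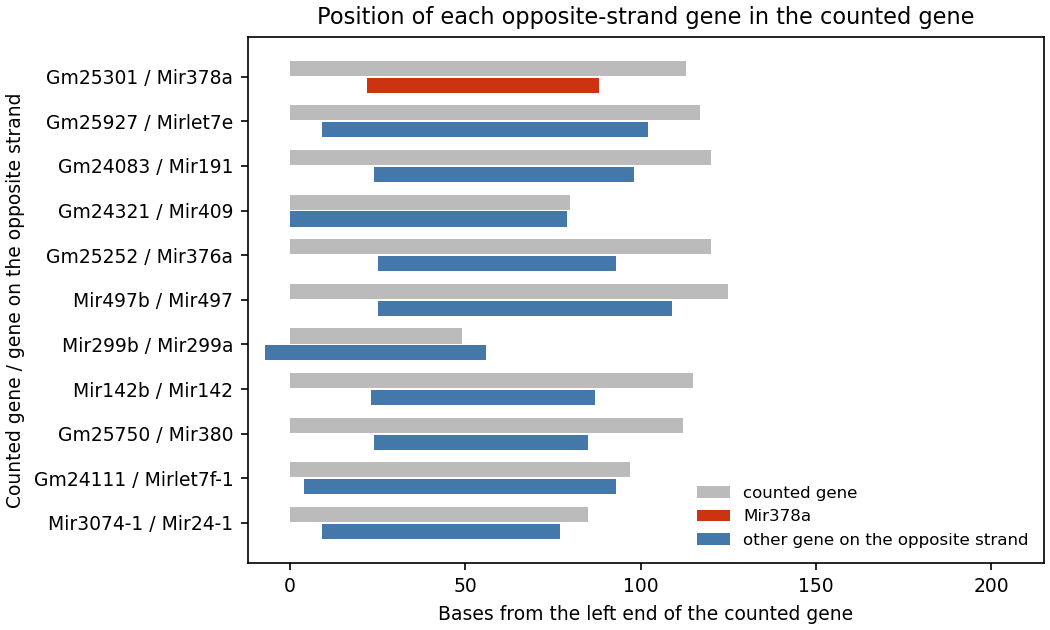
Extent of each counted gene (grey) and of the annotated miRNA gene on its other strand (red for Mir378a, blue for the others), in bases from the left end of the counted gene, for the 11 genes with most counts on the opposite strand. Mir378a spans 66 of the 113 bases of Gm25301, and the only counted gene that is shorter than its opposite gene is Mir299b.

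The other genes of the miR-378 family were low on their own strand. Mir378d (mm10 chromosome 10, 126710282 to 126710391) had 43 and 32 counts, 8.48 ± 0.298 CPM (SD, n = 2). Mir378c (chromosome 14, 46954830 to 46954928) had 18 and 20 counts, 4.44 ± 1.39 CPM, and Mir378b (chromosome 11, 88352773 to 88352864) had 5 and 2 counts, 0.752 ± 0.296 CPM. Mir378b was under the detection minimum. Together the opposite-strand count of Gm25301 exceeded the summed own-strand counts of the 3 genes 622-fold in replicate 1 (41082 against 66) and 525-fold in replicate 2 (28347 against 54). The Mir378a hairpin shares its longest identical run of bases with Mir378c, at 20 bases, then with Mir378b at 19 and with Mir378d at 15. Of 2200 other miRNA hairpins compared on both strands, none shared 21 bases with it, and the longest run outside the named family was 16 bases, in Gm27881. Reads no longer than these runs could map to several places and would then be in no gene's count. How many such reads there were was not tested. Only identical runs in annotated miRNA hairpins were compared, so whether longer reads also map elsewhere in the genome was not tested.

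Mir378a lies in the first intron of all 3 Ppargc1b transcripts of GENCODE M21 (gene on the minus strand, chromosome 18, 61298136 to 61400431) and overlaps none of their exons. It is 2389 bases from the end of the first exon. The intron is 17.8 kb long in Ppargc1b-201, 77.0 kb in Ppargc1b-202 and 10.2 kb in Ppargc1b-203. The host's own transcript was not measured, as the tables hold miRNA genes only.

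Within 1 Mb of Gm25301 there were 6 other counted miRNA genes, and the expressed ones were Mir143 and Mir145a, miRNAs of smooth muscle and stroma. Both are on the minus strand, as is Mir378a, at distances of 251 and 249.9 kb. Mir143 had 93068 and 71472 counts, 18645 ± 1069 CPM (SD, n = 2), above Gm25301 at 7796 CPM in both replicates. Mir145a had 1859 and 1503 counts, 383 ± 35.8 CPM. Mir6983 had 2 and 0 counts, and Mir5107, Mir7220 and Mir6982 had 0 in both replicates. These 4 genes lie on the plus strand, as Gm25301 does, but none had opposite-strand counts.

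The replicates had nearly the same level of Gm25301. The log2 ratio of replicate 2 over replicate 1 was -0.03 (95% exact interval -0.05 to -0.01). The median size of this ratio over 359 tested counts of a gene on one strand was 0.22, and 36 of the 359 lay closer to 0 than Gm25301. The 359 are not matched for level, and counting error alone spreads the ratio of the low ones widely. Mir184, with 12 and 11 counts, had a 95% exact interval of -0.95 to 1.69. In a two-sided exact binomial test with Benjamini-Hochberg adjustment, Gm25301 was lower in replicate 2 at an adjusted p of 0.0081, as were 27.6% of all those tested. At a minimum log2 ratio of 1 in size it was not called, and 2.23% of all tested were. The test takes only counting error into account and compares the libraries, not conditions. Gm25301 no longer passed without a count minimum (adjusted p 0.0848), nor in edgeR's exact test with an assumed coefficient of variation of 0.2 (adjusted p 1).

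**Figure D4:**
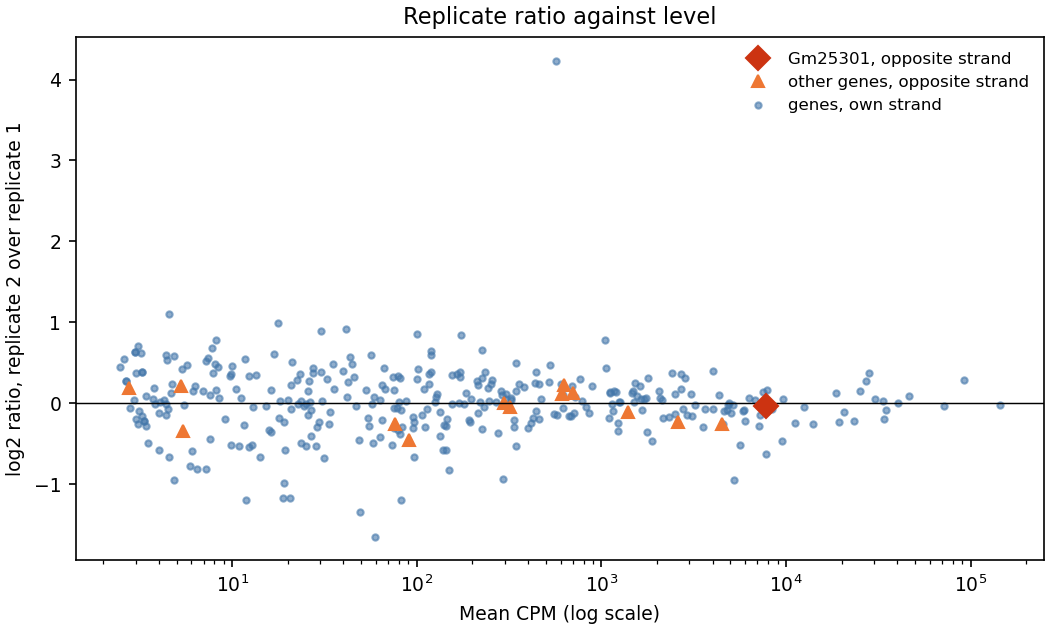
Log2 ratio of replicate 2 over replicate 1 (1 CPM added) against mean CPM (log axis) for 359 gene counts, with Gm25301 on its opposite strand as a diamond, other opposite-strand counts as triangles and own-strand counts as circles. Gm25301 lies at -0.03, and the circle far above all others is Mir122 at 4.23.

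The log2 ratio was larger in size than that of Gm25301 for 9 of the other 10 genes read mostly on the opposite strand, and smaller for Gm25750. Of all 11, 3 passed as higher and 6 as lower in replicate 2 (adjusted p, exact binomial test), Gm25301 included, where 26.5% and 27.6% of all tested did. Their log2 ratios ran from -0.45 in Gm24111 to 0.22 in Mir497b, with a median of -0.05, against a median of 0.02 over all tested. Among 16 genes whose own-strand level was within 1.5-fold of Gm25301, the 5 with the most similar ratio were Mir23a at -0.07, Mir615, which lies among the Hoxc genes, at -0.09, Mir98 of the let-7 family at -0.09, Mir652 at 0.04 and Mir93 at 0.05. This likeness rests on 2 libraries.

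Marker miRNAs of other tissues, muscle and liver among them, were also counted. Of 10 miRNA genes of skeletal and cardiac muscle, 9 have a row and 2 were detected. The gene without a row, Mir1a-2, lies opposite Mir1b, which had 0 opposite-strand counts in both replicates. Whether reads of Mir1a-2 were lost by mapping to several places was not tested, so this 0 does not show that it was silent. Gm25301 had 7896 and 7695 CPM, and the counted muscle genes together had 85.3 CPM in replicate 1 and 63.8 CPM in replicate 2. Most of this was Mir206 at 62.9 ± 13.3 CPM (SD, n = 2), and Mir1a-1, Mir133a-1 and Mir133a-2 had 0 counts in both replicates. Those 3 genes share 21 bases with another miRNA gene, and such shared reads were not counted for any gene, so the muscle sum may be incomplete. Mir122, the miRNA of hepatocytes, had 56.3 CPM in replicate 1 and 1074 CPM in replicate 2, a log2 ratio of 4.23. The erythroid genes Mir451a, Mir144 and Mir486 summed to 161 and 77.6 CPM, and Mir486 also shares 21 bases with another miRNA gene. The part of these other tissues in the Gm25301 level was not tested. In bulk tissue, fewer cells of a type and less RNA per cell cannot be told apart.

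Markers of the kidney's own cells were present. The miR-200 family of epithelium had 5 of 5 genes detected and had a summed level of 26799.5 CPM in replicate 1 and 23488 in replicate 2. In replicate 2, 0 of these 5 passed as higher and 4 as lower, where 26.5% and 27.6% of all tested did. Mir126a of endothelium stood at 46469 ± 1824 CPM (SD, n = 2). Of 7 genes of stroma and smooth muscle, 6 were detected, summing to 25029 and 25625 CPM. Of 5 genes of the nephron tubule 3 were detected, at 354 and 490.0 CPM. These 3 did not move together. Mir192 had 125 and 224 CPM and Mir194-2 had 71.1 and 129 CPM, while Mir204 had 157 and 136 CPM. In replicate 2, 2 of them passed as higher and 1 as lower, beside the same 26.5% and 27.6%. Mir199a-1, Mir199a-2 and Mir199b of stroma and Mir194-1 and Mir194-2 of the tubule share 21 bases with another miRNA gene. The stromal and tubule sums may therefore be incomplete. Each of the epithelial, endothelial and stromal sums exceeded Gm25301 in both replicates, while the tubule, muscle, erythroid, hepatocyte and leukocyte sums lay below it. In each of the higher lists only 1 gene was itself above Gm25301 by mean CPM. These were Mir429 at 14037 CPM, Mir126a, the only endothelial gene with a row, and Mir143 at 18645 CPM. The leukocyte genes Mir223 and Mir150 summed to 279 and 281 CPM on their own strand, and Mir142b, read opposite for Mir142, had 324 and 312 CPM on its opposite strand. Which cells of the kidney the Gm25301 reads came from was not tested.

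Other miRNAs tied to energy metabolism and fat were mostly far below Gm25301, as were detected genes in general. Of 18 such genes 16 were detected, with a median of 118 CPM against 114 CPM over all 345 detected genes. Mir143 was the only 1 of the 16 above Gm25301, where 6.67% of all detected genes were in replicate 1 and 6.96% in replicate 2. The next were Mir196a-2 at 2495 ± 126 CPM and Mir27b at 2425 ± 427 CPM (SD, n = 2). Mir455 had 1244 ± 4.51 CPM and Mir107, in a pantothenate kinase gene, 1161 ± 57.8 CPM. Mir33, in an intron of the sterol regulator Srebf2, had 64.6 ± 6.87 CPM, and Mir193b, described in brown fat, had 17.7 ± 8.74 CPM. Of the 16, 7 passed as higher in replicate 2 and 2 as lower, where 26.5% and 27.6% of all tested did, with a median log2 ratio of 0.17 against 0.02 over all detected genes. Of the 18 genes, 9 have an identical stretch of 21 bases elsewhere among the miRNA genes, Mir107 and Mir196a-2 included, which leaves their values uncertain. Of 5 genes of vessels and hypoxia, all detected, Mir126a was above Gm25301, Mir296 had 4043 ± 768 CPM, Mir221 had 459 ± 51.6 CPM and Mir210 had 287 ± 20.1 CPM. Of these 5, 4 passed as higher in replicate 2 and 0 as lower, set beside the same 26.5% and 27.6%, and Mir222, at 288 ± 13.4 CPM, did not pass.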

How the data were processed

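The authors deposited raw counts of reads per miRNA gene for each library, without normalization. The deposit's file descriptions name mm10 and GENCODE release M4; which aligner was used is not given in the sources used here. The 3 columns were read as both strands, own strand and opposite strand, since for every gene the first equals the second plus the third, and the second, which holds most counts, was taken as the own strand. Tallies of unassigned reads (4 rows, 49.2% and 44.6% of reads) were left out. Symbols and positions came from GENCODE M21 (1894 of 1973 identifiers matched; the other 79 had at most 1 count).

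With 1 group there is no contrast for a quasi-likelihood test. Replicates were compared over the 359 gene and strand counts of at least 10 in each, by an exact binomial test on totals scaled by TMM (factors 1.00 and 0.998), with 1 CPM added in ratios. Their counts were further apart than sampling alone gives (chi-square test over 348 genes, statistic 46613, 347 degrees of freedom). The calculation was tested on simulated counts.

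The gene, lists and rules for named genes (nearest in rank, position or ratio; the genes read mostly on the opposite strand; the lists) were chosen with earlier results of these data known. Alternatives were other denominators, minimums, size factors, pseudocounts, an edgeR exact test and each replicate alone. Tests used scipy 1.17.1 under Python 3.11.15, with tables in pandas 2.3.3 and numpy 2.4.6 and plots in matplotlib 3.10.9. Scaling used edgeR 4.0.16 and, as an alternative, DESeq2 1.42.0, in R 4.3.3.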

Additional observations from a re-analysis of the deposited data

How the results depend on the processing

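The level of Gm25301 was 7650 CPM with counts on both strands as the total, 8909 CPM when the most abundant gene was also left out of the total, and 4060 CPM with all reads as the total; each alternative changes the total by construction. With each replicate alone the level was 7695 to 7896 CPM, the rank 24 to 25 and the share of opposite-strand counts 40.1% to 42.0%. The rank was 25 with counts of both strands for all genes. It was also 25 without genes that share 21 bases, none of which lay above Gm25301. Leaving these genes out does not restore their reads that mapped to several places, so this setting cannot show how such reads would change the rank. The number of genes with most counts on the opposite strand was 10 to 12 under 6 alternatives. Between the replicates 8 gene counts were called in the main test, 15 of 781 without a count minimum, 4 with a pseudocount of 10 CPM, and 2 in edgeR's exact test with an assumed coefficient of variation of 0.2 (16 at an unadjusted p below 0.05). The log2 ratio of Gm25301 ran from -0.05 (DESeq2 size factors) to -0.03 under 7 alternatives, with adjusted p from 1.04e-05 to 1. The replicate comparison has no value with a replicate left out. No paired analysis was possible because there is 1 group. With 2 libraries, depth is not the limit for Gm25301. Since the number of embryos is not settled, the spread between animals may not be measured here at all.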
